A study of Macaca mulatta with 6 samples.

Results

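SNORD115 and SNORD116 are families of C/D box small nucleolar RNAs whose copies lie one after another in an imprinted region, and all genes of the small RNA count table with a name starting with SNORD115 or SNORD116 were taken as members. The rule gave 45 copies of SNORD115 and 32 copies of SNORD116, 77 of the 3083 genes in the table. The libraries are small RNA of the right testis, 1 per animal, and the 6 animals were juvenile rhesus monkeys of wild type genotype. The 3 vehicle animals were number 7 (24 months old), 9 (14 months) and 11 (15 months). The 3 gonadotropin animals were number 8 (22 months), 10 (14 months) and 12 (15 months). Both infusions were pulsatile and lasted 48 h, and the gonadotropin infusion held follicle-stimulating hormone and luteinizing hormone. The series asks how small RNAs of the testis respond to gonadotropin at the onset of puberty. Whole testis mixes germ, Sertoli, Leydig and other cells, so fewer cells of a type and less RNA per cell cannot be told apart.

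C/D box snoRNAs are released from the introns of a host transcript and are trimmed to a short RNA bound by fibrillarin, and most of them guide 2'-O-methylation of ribosomal RNA. SNORD115 and SNORD116 have no established ribosomal target. They are cut from a long transcript that starts at the SNRPN gene and is made from the paternal allele, and loss of the paternal SNORD116 cluster is central to Prader-Willi syndrome. SNORD115 is known mainly from neurons and has a stretch complementary to the serotonin receptor 2C transcript, whereas SNORD116 is found in a wider range of tissues, brain foremost.

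Total counts were 2146412 to 3170784 per library. miRNA genes took 91.9 to 96.9% of them and genes named SNORD took 1.43% (vehicle 7) to 4.77% (vehicle 9). Levels are given as counts or as CPM, counts per 1000000 library counts after TMM scaling, a factor per library that evens out differences in composition. The TMM factor of vehicle 7 was 0.784, against 0.987 to 1.16 elsewhere. Of 12 miRNA names of germ, Sertoli or Leydig cells, 7 were in the table, with a summed level of 7387 to 11380 CPM in vehicle and 7485 to 17228 CPM in gonadotropin libraries. The 5 names absent from the table were mir-202, mir-506, mir-508, mir-510 and mir-513, so the tissue could be checked against the rest of the list alone. Of 8 neural names all 8 were present (14 genes, none at 0 throughout), at 1039 to 1144 CPM in vehicle and 1061 to 1347 CPM in gonadotropin libraries. The blood list (6 of 6 names) summed to 2956 to 5914 CPM in vehicle and 4705 to 5114 CPM in gonadotropin libraries. mir-126 of endothelium was at 4354 to 7475 and 5738 to 7074 CPM. The muscle list (5 of 5 names) summed to 13357 to 23496 and 12894 to 21280 CPM. Group ranges overlapped in all 5 lists, no marker gene passed the edgeR test between groups, and their part in the results was not tested.

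The copies on chromosome 7 (rheMac8, plus strand) kept the order known from the human locus. SNORD107 (1867995 to 1868069), SNORD64 (1871093 to 1871159), SNORD108 (1872921 to 1872991) and a SNORD109A copy (1925268 to 1925334) came first. The 29 placed SNORD116 copies followed from 1934445 to 1997683, a span of 63.2 kb with a median of 2155.5 bp between starts. The 41 placed SNORD115 copies ran from 2060900 to 2173814, over 113 kb with a median of 1897 bp between starts, and a further SNORD109A copy (2182021 to 2182087) closed the array. The other 3 SNORD116 and 4 SNORD115 copies lay on contigs without a chromosome. SNORD116 genes were 77 to 96 bp long, with 17 copies of 92 bp and 10 of 95 bp. SNORD115 genes were 76 to 82 bp long, with 32 copies of 82 bp and 11 of 81 bp. The table does not say whether a gene is intronic in the host transcript.

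Many copies could not be told apart by their counts. The 45 SNORD115 copies had 27 distinct count profiles over the 6 libraries, and the 32 SNORD116 copies had 31. Among copies with at least 30 counts in all, 10 of 17 SNORD115 copies fell into 3 sets with the same count in every library. The first set holds ENSMMUG00000045069, ENSMMUG00000044240, ENSMMUG00000038440 and ENSMMUG00000039658, each with 494 counts. The second holds ENSMMUG00000038535, ENSMMUG00000041287, ENSMMUG00000043610 and the unplaced ENSMMUG00000039653, each with 181 counts. The third holds ENSMMUG00000044991 and ENSMMUG00000040673, each with 95 counts. Of 16 such SNORD116 copies, ENSMMUG00000037645 and ENSMMUG00000039936 had identical counts (82 each), and 4 copies were alike when differences up to 10% per library were allowed, with ENSMMUG00000049179 and ENSMMUG00000046213 joining them. The members of such a set cannot be told apart and are described once, as 1 measurement. Sums over all copies may count a read more than once. Identical profiles among copies with few counts carry less weight, since sparse counts often coincide.

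**Figure D1:**
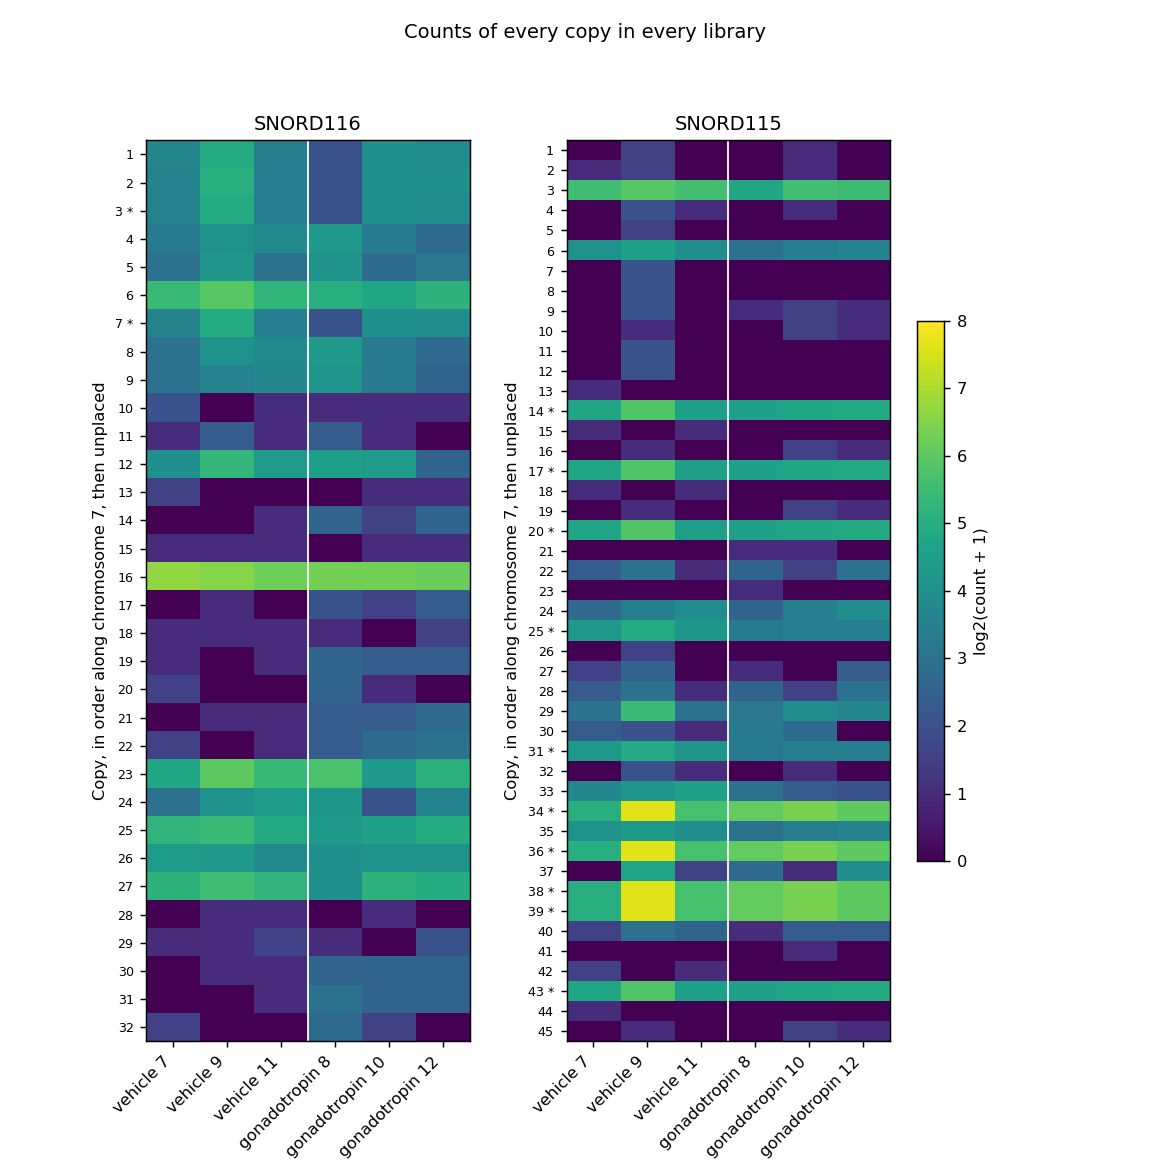
Counts of each SNORD116 copy (left, 32 rows) and SNORD115 copy (right, 45 rows) in each library, as log2(count + 1) by colour; rows follow the order along chromosome 7, then unplaced contigs, and an asterisk marks copies in a near-identical set. The set of 4 SNORD115 copies at rows 34, 36, 38 and 39 is brightest in vehicle 9, with 199 counts each.

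The summed level of SNORD116 overlapped between the groups. Over all 32 copies the sum was 163 CPM in vehicle 7, 192 in vehicle 9 and 147 in vehicle 11, against 154 in gonadotropin 8, 111.9 in gonadotropin 10 and 138 in gonadotropin 12. The groups overlapped, with gonadotropin 8 inside the vehicle range. The means were 167 ± 22.8 CPM in vehicle and 135 ± 21.2 CPM in gonadotropin libraries (SD, n = 3 each), a log2 ratio of -0.31. The 95% Wilson interval of the sum, which covers counting error only, was 177 to 208 CPM in vehicle 9 and 132.5 to 163 CPM in vehicle 11. It treats reads of copies with identical counts as separate and is therefore too narrow. With the identical copies taken once the means were 161 ± 19.8 and 131 ± 22.9 CPM.

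SNORD115 as a family was set apart in 1 animal, not in 1 group. Over all 45 copies the sum was 171 CPM in vehicle 7, 455 in vehicle 9 and 184 in vehicle 11, against 188, 188 and 201 CPM in gonadotropin 8, 10 and 12. Vehicle 9 lay above every other library, and the other vehicle libraries lay below all 3 gonadotropin libraries. The means were 270 ± 160 CPM in vehicle and 192 ± 7.55 CPM in gonadotropin libraries, a log2 ratio of -0.49 that turned to 0.12 without vehicle 9. With each near-identical set taken once, vehicle 9 was at 184 CPM and the others at 76.2 to 91.6 CPM.

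**Figure D2:**
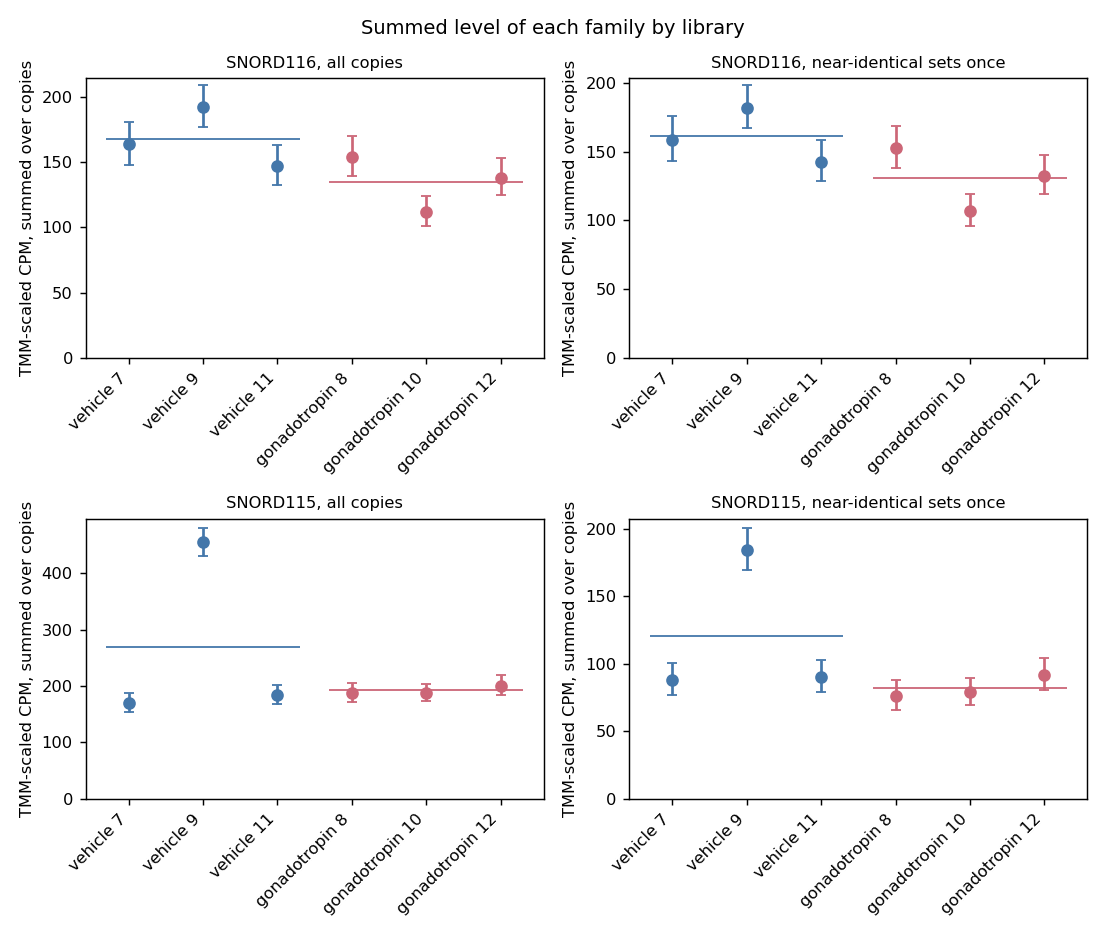
Summed TMM-scaled CPM of SNORD116 (top) and SNORD115 (bottom) in each library, over all copies (left) and with each near-identical set taken once (right); bars are 95% Wilson intervals for counting error and horizontal lines are group means. SNORD115 in vehicle 9 (455 CPM over all copies) lies above the 171 to 201 CPM of the other libraries.

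Both families are a small part of the snoRNA counts. SNORD115 made 0.490 to 1.03% of the counts of genes named SNORD, and SNORD116 made 0.339 to 0.896%. Per 10000 counts of the 199 other SNORD genes, SNORD115 had 95.4, 104 and 49.5 counts in vehicle 7, 9 and 11 and 60.8, 57.3 and 95.5 counts in gonadotropin 8, 10 and 12. On this scale vehicle 9 no longer stood alone and the groups overlapped. SNORD116 had 91.2, 44.1 and 39.5 counts in the vehicle libraries and 49.7, 34.2 and 65.6 in the gonadotropin libraries. Vehicle 7, the library with the least snoRNA, was highest there, and the groups overlapped. The part of snoRNA content in the family levels was not tested.

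Of the SNORD116 copies, 15 passed the filter on low counts, which asks for about 10 counts in at least 3 libraries, and 17 did not. None of the 15 passed the quasi-likelihood test of edgeR (717 genes tested, threshold 0.05 after Benjamini-Hochberg adjustment, 0.139% of all genes called), 0 had an unadjusted p under 0.05, and DESeq2, the edgeR exact test and limma voom also gave 0 on both counts. The log2 fold changes, gonadotropin minus vehicle, ran from -0.74 to -0.012 with a median of -0.64, beside a median of -0.016 over all tested genes. All 15 were below 0, where 51.9% of tested genes were, but 13 of 15 were with library totals and 14 of 15 with upper-quartile scaling. Copies with identical or similar counts are included, so these are not 15 separate results. No copy had more gonadotropin than vehicle libraries over the filter's minimum and some had fewer. The filter can therefore favour this direction, and the count is given as a description. Without gonadotropin 10 the copies below 0 were 10 of 16 and without gonadotropin 12 they were 12 of 16 (1 more copy passed the filter in each of these fits). Library totals moved the median of all genes to 0.090 and left 295 of 717 genes below 0, against 372 in the reported fit.

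The most abundant SNORD116 copy was ENSMMUG00000047380 (1965883 to 1965974), which held 20.9% of the family's counts. Vehicle 7, 9 and 11 held it at 44.9, 31.4 and 29.99 CPM, and gonadotropin 8, 10 and 12 at 31.7, 25.6 and 27.4 CPM. Vehicle 7 was highest and the groups overlapped, with a log2 fold change of -0.33 (SE 0.37). The copies next to it in the array, ENSMMUG00000042488 and ENSMMUG00000040369, had 5 and 10 counts in all 6 libraries together. Per 100 bp of gene it stood at 34.6 CPM over the 6 libraries, against 16.1 for ENSMMUG00000045692 and 15.2 for ENSMMUG00000038666, the next in order.

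ENSMMUG00000045692 (1982779 to 1982870) was at 11.8, 21.5 and 16.0 CPM with vehicle, against 20.5, 6.07 and 13.1 CPM with gonadotropin. Gonadotropin 10 was lowest and the groups overlapped (log2 fold change -0.32, SE 0.50), a value that became 0.033 without that library. ENSMMUG00000038666 (1947830 to 1947924) was at 17.9, 20.1 and 14.8 CPM with vehicle, against 12.4, 7.99 and 13.5 CPM with gonadotropin. Here the groups did not overlap, but the difference of -0.64 (SE 0.37) was not called (quasi-likelihood test of edgeR, adjusted p = 0.998). The second copy without overlap was ENSMMUG00000047826 (1992688 to 1992779), at 15.2, 15.7 and 14.4 CPM with vehicle, against 6.01, 11.2 and 11.6 CPM with gonadotropin (-0.65, SE 0.38). So 2 of 15 SNORD116 copies lay wholly lower in gonadotropin libraries, where 3.35% of all tested genes did, and 0 lay wholly higher, where 4.88% did. ENSMMUG00000041314 (1988529 to 1988620), with the smallest p of the 15 copies above the filter, was at 15.7, 14.0 and 11.2 CPM in vehicle. It was at 7.62, 7.35 and 11.2 CPM in gonadotropin libraries, so that gonadotropin 12 was level with vehicle 11 (-0.64, SE 0.36).

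Copies of 95 bp near the start of the array fell into differing profiles. ENSMMUG00000037645 and ENSMMUG00000039936 had 11, 29 and 10 counts in the vehicle and 3, 15 and 14 counts in the gonadotropin libraries. Gonadotropin 8 was lowest and vehicle 9 highest. ENSMMUG00000047223 lies between this pair and ENSMMUG00000045795 follows it. Both had 16 and 13 counts in vehicle 9 and 11. In gonadotropin 8, 10 and 12 both had 19, 9 and 6 counts, with gonadotropin 8 highest. The neighbours in the array therefore did not follow the same order of libraries.

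The summed level of the 17 SNORD116 copies below the filter was higher in gonadotropin libraries, although 9 of these copies had a higher and 8 a lower mean CPM there. Their summed counts were 23, 28 and 20 in vehicle 7, 9 and 11 and 67, 42 and 52 in gonadotropin 8, 10 and 12. In CPM these were 10.0, 9.55 and 7.999 against 26.9, 13.4 and 20.1, with no overlap between the groups. The means were 9.19 ± 1.06 and 20.1 ± 6.72 CPM, a log2 ratio of 1.13 that lay between 0.87 and 1.35 without any 1 library and between 1.12 and 1.30 over the 3 other scalings. The 15 copies above the filter summed to 153, 182 and 139 CPM with vehicle, against 127, 98.5 and 118 CPM with gonadotropin, also without overlap and in the opposite direction (log2 ratio -0.47). This split was made after the values were seen, and no test was run on the sums.

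**Figure D3:**
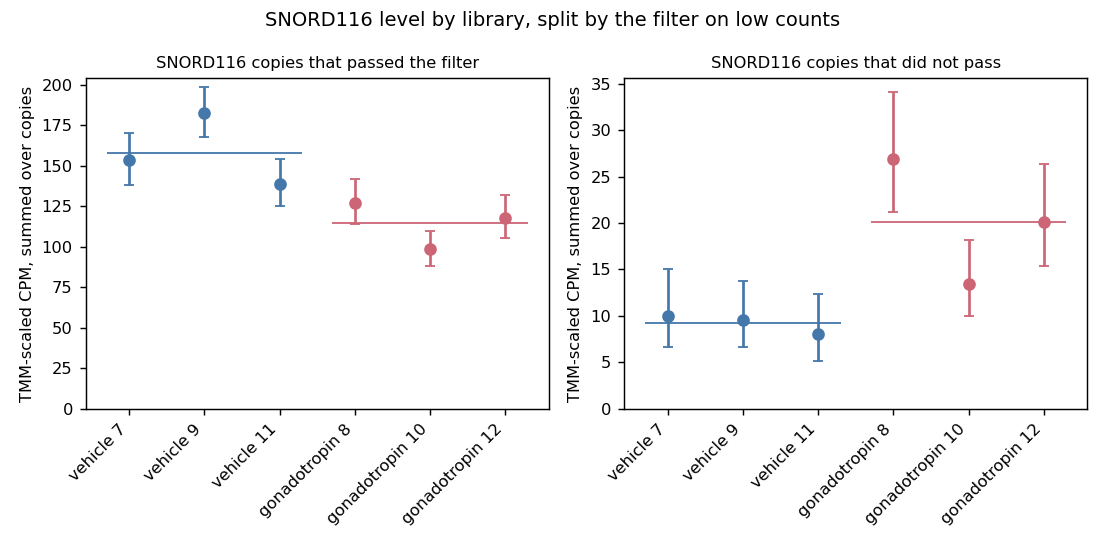
Summed TMM-scaled CPM of the 15 SNORD116 copies above the filter on low counts (left) and the 17 below it (right), by library; bars are 95% Wilson intervals for counting error and lines are group means. The left panel is lower and the right panel higher in the 3 gonadotropin libraries, from 9.19 to 20.1 CPM on the right.

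The higher counts came mainly from 7 of these 17 copies, in which every gonadotropin library lay above every vehicle library. These 7 together had 3, 3 and 6 counts in vehicle 7, 9 and 11, against 33, 28 and 36 counts in gonadotropin 8, 10 and 12. The summed counts of the rest of the 17 overlapped between the groups. The lack of overlap in the sum of the 17 therefore rests on copies picked for that property. Each of the 7 had 0 to 2 counts in the vehicle libraries and 2 to 7 in the gonadotropin libraries. A count of 0 allows up to 3 counts, or 0.959 to 1.31 CPM depending on the library. ENSMMUG00000045536, on a contig without a chromosome, had 0, 0 and 1 counts in vehicle and 7, 5 and 5 in gonadotropin libraries, 16.0 times as many per scaled read (95% exact interval 2.51 to 669, counting error only). ENSMMUG00000039776 (1962533 to 1962624) had 0, 0 and 1 against 5, 2 and 5 counts. ENSMMUG00000037886 (1980919 to 1981010), with the most counts of those on chromosome 7, had 2, 0 and 1 against 4, 6 and 7, a ratio of 5.34 (1.54 to 28.4). Because the 7 copies were picked for groups that do not overlap, these ratios and intervals are no separate evidence. ENSMMUG00000046276 had 0, 1 and 1 against 4, 4 and 6 counts, and ENSMMUG00000046874 had 1, 0 and 1 against 5, 4 and 4. ENSMMUG00000040369 had 0, 1 and 0 against 3, 2 and 4 counts, and ENSMMUG00000045741 had 0, 1 and 1 against 5, 5 and 5.

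All 7 copies are 92 bp long, and the 5 on chromosome 7 lie between 1962533 and 1981010, a stretch with 9 SNORD116 copies in all. Length and place alone do not set them apart. Without a filter, the 9 SNORD116 copies above 0 were all 92 bp long, and those on chromosome 7 lay in this stretch. Of the 17 copies of 92 bp, the 5 above the filter were all below 0 and 3 of the 12 below it were too, and ENSMMUG00000047380, the most abundant copy, lies in the same stretch. Fitted without a filter, 9 of 32 SNORD116 copies were above 0 (46.4% of all genes were) and 23 below. In that fit 6 of the 32 had an unadjusted p under 0.05 (edgeR quasi-likelihood test), all higher, where 1.14% of the 3083 genes did so in that direction. The 6 are among the 7 copies, which were picked for groups that do not overlap, so their low p is no separate evidence. None passed after adjustment (lowest adjusted p = 0.628, edgeR; 0.0973% of genes called). A share of 7 in 32 copies without overlap and higher compares with 2.3% of all genes. In the authors' deposited table, 21 SNORD116 copies are listed. There 5 have a p under 0.05, all higher with gonadotropin, where 1.61% of the listed genes are, and the lowest adjusted p is 0.248. These 5 are also among the 7 copies and rest on the same counts, so they are no separate evidence either. Of the listed copies 16 are below 0 in that table, where 53.1% of its genes are. The 7 copies may hold fewer separate measurements than their number. The 3 unplaced copies had counts within 1 or 2 of a copy on chromosome 7 in every library. ENSMMUG00000045741 was within 1 count of both ENSMMUG00000046874 and ENSMMUG00000046276, ENSMMUG00000045536 within 2 of ENSMMUG00000046874, and ENSMMUG00000046678 within 1 of ENSMMUG00000045610. For ENSMMUG00000045741 and ENSMMUG00000045536 other copies on chromosome 7 were within 3 counts as well, so no single partner is shown. For ENSMMUG00000046678 only ENSMMUG00000045610 was within 3 counts. At 2 to 7 counts per library, the depth does not show whether these are separate RNAs or shared reads.

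**Figure D4:**
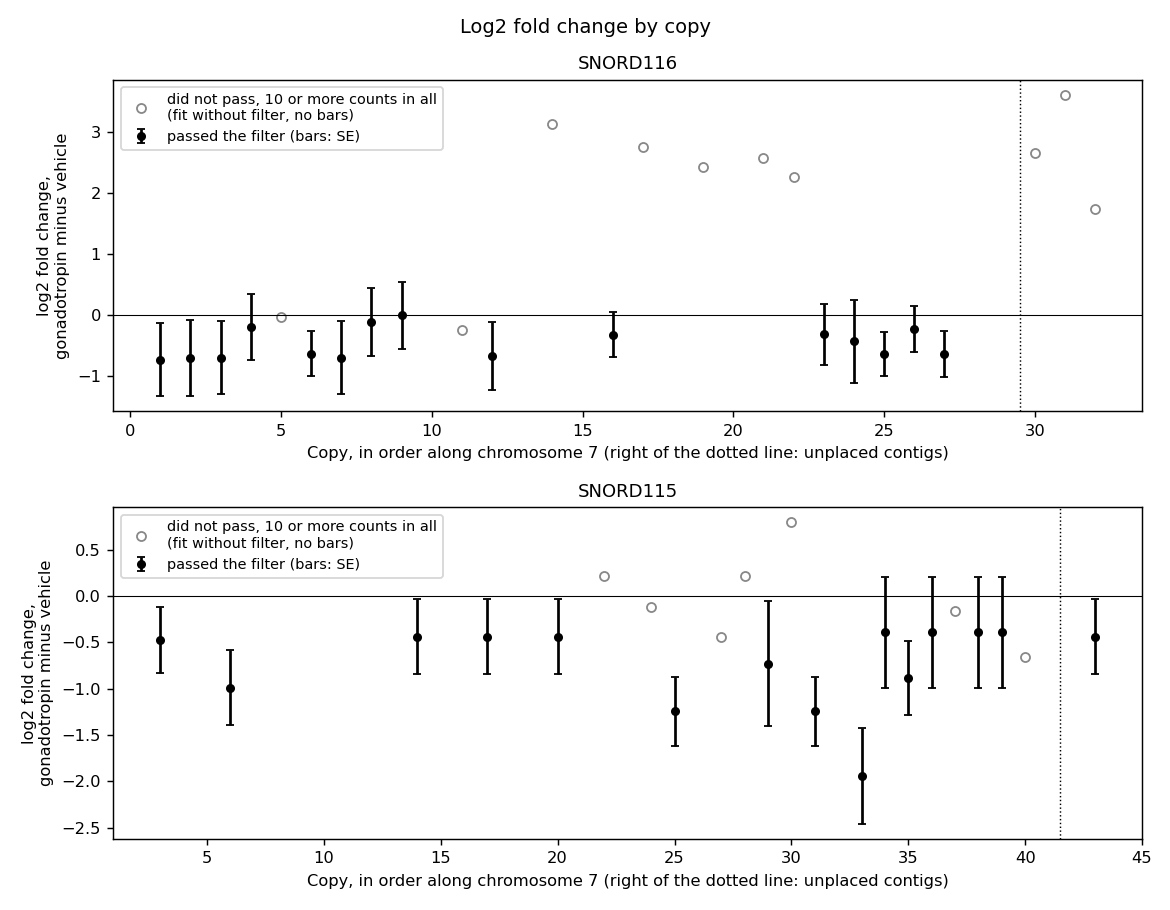
Log2 fold change, gonadotropin minus vehicle, of SNORD116 (top) and SNORD115 (bottom) copies in order along chromosome 7, with unplaced copies right of the dotted line; filled points passed the filter (bars: SE) and open points did not but had 10 or more counts in all. The open SNORD116 points above 2 are the 7 copies with 0 to 2 counts in each vehicle library.

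Of the SNORD115 copies, 15 passed the filter and 30 did not, and 23 of the 45 never exceeded 3 counts in a library. None of the 15 passed the edgeR quasi-likelihood test (lowest adjusted p = 0.804). By that test 4 had an unadjusted p under 0.05, all lower with gonadotropin, where 1.95% of all tested genes were. All 4 had fewer than 3 gonadotropin libraries over the filter's minimum, and ENSMMUG00000039530 had 0, so the filter favours this direction among low copies and the count is given as a description. DESeq2, the edgeR exact test and limma voom gave 0 called and 4 with an unadjusted p under 0.05 each, and the lowest adjusted p was 0.189, with DESeq2 (up to 0.9996 over all alternatives). Log2 fold changes ran from -1.94 to -0.39 with a median of -0.44 over the 15 copies, and of -0.81 over the 8 sets and single copies. All 15 were below 0 under TMM, library totals, upper-quartile and RLE scaling, but 11 of 16 were without vehicle 9, with a median of -0.12. The groups did not overlap in 6 of 15 copies (5 of 8 with sets taken once), all lower, where 3.35% of tested genes did. Of these 6 only ENSMMUG00000037643 had all 3 gonadotropin libraries over the minimum. The filter therefore favours this direction here too, and the share is given as a description. Copies with identical counts are included, so these are not 15 separate results.

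The most abundant SNORD115 profile, the set of ENSMMUG00000045069 (2141526 to 2141606) and its 3 equals, was highest in vehicle 9. Each copy was at 13.9, 67.8 and 20.0 CPM in vehicle 7, 9 and 11 and at 26.9, 26.5 and 24.3 CPM in the gonadotropin libraries. The vehicle libraries enclosed the gonadotropin libraries. The log2 fold change of -0.39 (SE 0.60) became 0.55 without vehicle 9. All 4 copies are 81 bp long and lie between 2141526 and 2153159, near the end of the array. ENSMMUG00000045773 (2132186 to 2132267) was likewise highest in vehicle 9, with 42 counts against 7 to 14 elsewhere. ENSMMUG00000039915, below the filter, lies between copies of the set and had 24 counts in vehicle 9 and 0 and 2 in the other vehicle libraries, with 6, 1 and 14 in the gonadotropin libraries.

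Other SNORD115 copies had lower values in gonadotropin libraries with and without vehicle 9. ENSMMUG00000039530 (2139675 to 2139756) was at 5.23, 5.80 and 9.20 CPM with vehicle, against 2.81, 1.28 and 1.16 CPM with gonadotropin. Its log2 fold change of -1.94 (SE 0.52) ran from -2.41 to -1.63 without any 1 library, on 66 counts in all. It passed the filter through the 3 vehicle libraries alone, so a copy with its low gonadotropin counts could enter the test only with higher vehicle counts, and its fold change supports nothing by itself. The sets and copies that follow had 1 or 2 gonadotropin libraries over the minimum. The set of ENSMMUG00000044991 (2120960 to 2121041) and ENSMMUG00000040673 (2135926 to 2136007) was at 8.28, 9.89 and 7.199 CPM with vehicle, against 3.61, 3.197 and 3.86 CPM with gonadotropin. The groups were well apart, with a log2 fold change of -1.24 (SE 0.38; -1.32 to -1.17 without any 1 library). ENSMMUG00000047515 (2073596 to 2073677) was at 6.97, 7.84 and 5.60 CPM against 2.81, 3.197 and 4.25 CPM (-0.99, SE 0.40; -1.16 to -0.86 without any 1 library). ENSMMUG00000045651 differed from it in vehicle 9 alone, with 19 against 23 counts, and so is hardly a separate profile. None of these passed after adjustment over all genes, and in the authors' deposited table the lowest adjusted p of 21 listed SNORD115 copies is 0.335. There 3 of them have an unadjusted p under 0.05, all lower, where 2.04% of the listed genes are, and 18 are below 0.

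The more abundant SNORD115 copies had smaller log2 fold changes than the low copies just named. Those low copies had more vehicle than gonadotropin libraries over the filter's minimum. The filter therefore favours lower values among them, and this order is given as a description. ENSMMUG00000037643 (2066014 to 2066095) was at 20.0, 20.5 and 19.6 CPM with vehicle, against 10.8, 15.3 and 17.0 CPM with gonadotropin. The groups did not overlap, with a log2 fold change of -0.47 (SE 0.35). The set of ENSMMUG00000038535 (2093745 to 2093826) was at 10.9, 19.1 and 8.80 CPM with vehicle, against 9.22, 8.63 and 10.8 CPM with gonadotropin. Vehicle 9 was again highest and the groups overlapped (-0.44, SE 0.40). Per 100 bp the order over the 6 libraries was 36.9 CPM for the set of ENSMMUG00000045069, 21.0 for ENSMMUG00000037643 and 13.7 for the set of ENSMMUG00000038535. In vehicle 7 the set of ENSMMUG00000045069 lay below ENSMMUG00000037643, so that the order at the top was not the same in every animal.

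The 30 SNORD115 copies below the filter summed to 12.6, 32.7 and 11.6 CPM in vehicle 7, 9 and 11 and to 14.0, 13.1 and 21.3 CPM in gonadotropin 8, 10 and 12. Vehicle 9 was again highest and the groups overlapped. By mean CPM 11 of them were higher and 19 lower with gonadotropin, and in 0 of them were the groups apart. In the fit without a filter 46.4% of the 3083 genes were above 0. Groups were apart in 71 of those genes with gonadotropin higher and in 60 with it lower. As 23 of the 45 SNORD115 copies never exceeded 3 counts in a library, there was little room for groups to be apart.

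The other snoRNAs of the same host region overlapped between the groups. SNORD64 (ENSMMUG00000032720) was at 204, 361 and 243 CPM with vehicle, against 222.95, 226 and 161 CPM with gonadotropin, with vehicle 9 highest and the groups overlapping (-0.41, SE 0.35). SNORD109A (ENSMMUG00000041174 and ENSMMUG00000045328, whose counts were identical although they lie at opposite ends of the array) was at 79.7, 49.8 and 48.0 CPM against 41.7, 34.8 and 48.7 CPM (-0.50, SE 0.39). Vehicle 7 was highest there, as in ENSMMUG00000047380 of SNORD116. SNORD107 (ENSMMUG00000036590) was at 10.9, 28.6 and 18.8 CPM against 21.3, 15.3 and 14.7 CPM (-0.19, SE 0.44; 0.14 without vehicle 9). SNORD108 had at most 1 count per library. None of the 4 tested genes passed the edgeR test. All 4 were below 0 in the fit of all 6 libraries (3 of 3 with the SNORD109A pair taken once), where 51.9% of tested genes were. Per 100 bp SNORD64 stood at 353 CPM and each SNORD109A gene at 75.3 CPM. ENSMMUG00000047380 of SNORD116 stood at 34.6 CPM and each copy in the SNORD115 set of ENSMMUG00000045069 at 36.9 CPM. Genes with identical counts may share reads, so the values of SNORD109A and of this set may not be those of single copies. A second gene named SNORD64 on chromosome 1 (134579004 to 134579070) had 0 to 2 counts per library.

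Values below 0 were also the more frequent ones among the other snoRNAs. Of the 121 tested SNORD genes not named SNORD112 to SNORD116, 92 were below 0, where 51.9% of all tested genes were, with a median of -0.24. The edgeR test called 1 of them, where it called 0.139% of all tested genes. The groups were apart with gonadotropin lower in 3 of the 121 (3.35% of all tested genes) and higher in 0 (4.88%). Of the 26 tested copies of SNORD112 to SNORD114, the snoRNA arrays of the imprinted DLK1-DIO3 domain, 16 were below 0, with a median of -0.13, and in 0 of them were the groups apart. The difference between these lists and SNORD115 or SNORD116 was not tested.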

How the data were processed

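Small RNA of whole testis was sequenced from 3 vehicle and 3 gonadotropin animals; titles name Ion Torrent, the labels' protocols an Illumina total RNA kit. The authors deposited raw counts per small RNA gene, made on rheMac8; cutadapt 1.9.1, Bowtie 1.1.2 and HTSeq 0.6.1p1 are named per the submitters' processing notes. How strand and reads matching several copies were treated is not given in the sources used here. Their deposited edgeR table gives log2 fold changes, p-values, adjusted p-values and CPM and was used for comparison alone. Members and lists were chosen with earlier results of these data known.

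Genes passing filterByExpr (minimum count 10; 717 of 3083) entered TMM scaling and the robust quasi-likelihood test (edgeR 4.0.16 in R 4.3.3), fitted over all 6 libraries by group. The SE of a log2 fold change is its size over the root of the F statistic, an approximation. The biological coefficient of variation was 46.2%. CPM of genes below the filter used the same scaling. Copies were near-identical when counts were within 5% in every library (30 or more counts in all). Named were the 3 most abundant copies or sets and the 3 with the smallest p per family, with SNORD64, SNORD107, SNORD108 and SNORD109; further copies were named after their values were seen. Alternatives used DESeq2 1.42.0 and limma 3.58.1, other scalings and filters, age, near-identical copies as 1 row, and each library left out. On simulated counts of 717 genes, 11% of 2-fold and 69% of 4-fold changes were recovered. The changed genes were drawn from all tested genes, with 1 dispersion for all, so these shares are not specific to SNORD115 or SNORD116 copies. An exact permutation test of 3 against 3 cannot go below 0.1. No molecular identifiers are named in the labels, so intervals cover counting error only.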

Additional observations from a re-analysis of the deposited data

How the results depend on the processing

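No paired analysis was possible because the groups share no replicate number and no label pairs the animals; with age as a covariate no member passed. The count of genes called in the whole table was 1 in the reported fit and 3 without a filter, with DESeq2 and with the edgeR exact test, 0 with limma voom, and 0 to 1 without any 1 library; no member was among the calls. The SNORD116 median of -0.64 was -0.21 without a filter, which adds the 17 low copies, and ran from -0.56 to -0.34 without any 1 library (-0.34 without vehicle 9, -0.35 without gonadotropin 10). The SNORD115 median of -0.44 ran from -0.73 to -0.12 in the same way, and was -0.85 with near-identical copies as 1 row. Without any 1 library the summed log2 ratio ran from -0.42 to -0.20 for SNORD116 (-0.18 with library totals) and from -0.73 to 0.12 for SNORD115, whose sign turned without vehicle 9, as did those of its copies above the filter (-0.76 to 0.092) and below it (-0.49 to 0.41; 0.076 relative to the other SNORD genes). Of 246 alternatives for 15 named copies and host snoRNAs, 243 kept their direction and 0 passed. The 15 include both SNORD109A genes, whose counts are identical, so they are not 15 separate results. The 3 that turned were ENSMMUG00000045692 without gonadotropin 10 (-0.77 to 0.033 over the libraries left out), and ENSMMUG00000045069 (-0.73 to 0.55) and SNORD107 (-0.45 to 0.14) without vehicle 9. The cause was not tested. The alternatives for copies above and below the filter were chosen after seeing the data. Depth limits the low copies most: 1 count was worth 0.320 to 0.436 CPM.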
